A study of Mus musculus with 8 samples.

Results

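The circadian clock genes described here are the activator genes Arntl, which encodes BMAL1, and Clock, the repressor genes Per1, Per2, Per3, Cry1 and Cry2, the REV-ERB genes Nr1d1 and Nr1d2, and the output gene Dbp. They were taken by gene symbol, with earlier results of these data known, and are 10 of the 16593 genes with a named probe in the table. Arrays were used to read the total RNA of 8 samples of one immortalized mouse line of brown adipocytes, the cell type that burns fat to make heat. After 8 days of differentiation, 4 samples had received the vehicle DMSO and 4 the compound Z16078526 at 10 µM, and RNA was taken at 18 h. The labels do not state whether samples within a group are different cultures, and p-values then reflect just the spread among these samples, which may be technical. The stated aim was to see what Z16078526 does to these cells, and the comparison is treated against DMSO. A single time point was sampled, and whether the cells' clocks were set to a common phase is not given in the sources used here, so the phase and the amplitude of a rhythm were not measured. In RNA from whole cultures, fewer cells of a type and less RNA per cell cannot be told apart.

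The mammalian clock is a loop of transcription that takes about a day to complete. BMAL1 and CLOCK bind E-box sequences together and activate the Per and Cry genes, the REV-ERB genes and Dbp. PER and CRY proteins return to the nucleus and block BMAL1 and CLOCK. The REV-ERB proteins form a second loop: they are nuclear receptors that bind heme and repress Arntl, against the activating ROR receptors. DBP, and its relatives TEF and HLF, activate genes through D-box sequences, at which NFIL3 represses. In brown fat, REV-ERB alpha, the product of Nr1d1, is known to repress Ucp1 and to give heat production a daily rhythm.

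The promoters below are shown because they hold matches to short motifs searched for this loop. They are those of the REV-ERB genes and Ciart, which rose, and of Per1 and Per3, which did not pass the test. Each is the 250 bases before an annotated start, read on the gene's strand from RefSeq's table for GRCm38.p6, with matches in capitals. The letters searched on both strands were CACGTG (the E-box), AACGTG or CACGTT (a variant called E'-box), TTATGTAA or TTACATAA (the D-box) and AGGTCA or TGACCT (the core motif that many nuclear receptors share, REV-ERB and ROR among them). No search pattern overlaps another at the matches shown. The Nr1d1 window lies on the minus strand at chr11:98775378-98775627, that of Nr1d2 on the minus strand at chr14:18239107-18239356, that of Ciart on the minus strand at chr3:95882229-95882478, that of Per1 on the plus strand at chr11:69098699-69098948 and that of Per3 on the minus strand at chr4:151044666-151044915.
Nr1d1: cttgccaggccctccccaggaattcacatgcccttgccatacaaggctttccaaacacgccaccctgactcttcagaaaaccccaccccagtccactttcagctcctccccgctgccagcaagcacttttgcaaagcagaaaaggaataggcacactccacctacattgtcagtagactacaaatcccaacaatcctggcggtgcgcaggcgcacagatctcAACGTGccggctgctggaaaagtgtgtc
Nr1d2: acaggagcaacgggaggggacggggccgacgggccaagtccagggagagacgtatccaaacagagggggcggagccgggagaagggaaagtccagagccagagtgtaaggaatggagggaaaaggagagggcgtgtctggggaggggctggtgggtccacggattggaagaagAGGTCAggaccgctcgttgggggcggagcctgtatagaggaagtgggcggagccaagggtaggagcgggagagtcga
Ciart: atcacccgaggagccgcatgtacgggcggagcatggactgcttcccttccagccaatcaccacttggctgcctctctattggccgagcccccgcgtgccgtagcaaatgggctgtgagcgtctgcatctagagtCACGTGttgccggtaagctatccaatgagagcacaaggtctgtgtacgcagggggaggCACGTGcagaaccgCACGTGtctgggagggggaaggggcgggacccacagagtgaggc
Per1: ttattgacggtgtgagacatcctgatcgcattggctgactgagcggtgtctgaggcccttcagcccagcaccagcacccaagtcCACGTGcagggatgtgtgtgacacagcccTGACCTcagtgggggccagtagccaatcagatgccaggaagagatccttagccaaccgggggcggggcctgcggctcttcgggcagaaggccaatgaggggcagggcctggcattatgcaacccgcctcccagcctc
Per3: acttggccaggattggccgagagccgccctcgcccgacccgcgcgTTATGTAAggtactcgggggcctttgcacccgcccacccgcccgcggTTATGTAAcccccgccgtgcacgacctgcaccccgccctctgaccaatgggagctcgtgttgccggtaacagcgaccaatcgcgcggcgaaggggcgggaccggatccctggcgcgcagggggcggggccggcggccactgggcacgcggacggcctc

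The Nr1d1 window holds 1 E'-box, whose first base lies 28 bases before the start, and the Nr1d2 window 1 receptor core motif, 77 bases before it. These windows share no searched motif, although both genes rose. The Ciart window holds 3 E-boxes, 116, 58 and 44 bases before the start. The Per1 window holds an E-box at 166 bases and a receptor core motif at 137 bases, and the Per3 window holds D-boxes at 205 and 158 bases. Of the clock genes, 9 of 10 matched the table, with 13 windows in all since some genes have several starts, and Per2 is named only. Among the windows not printed, Cry1 has an E'-box and an E-box, Cry2 an E'-box, and the third Clock window a receptor core motif, while none of the searched letters is in the windows of Arntl or Dbp or in the second of Per1. Of other loop genes described below, Tef (not called) and Bhlhe41 (at the floor) also have E-boxes. The second Rorb window (not called) has an E'-box. Nfil3, which fell, has a receptor core motif 12 bases before the start, and Rora, which rose, has no searched motif. Over all 32851 windows of this length in the table, 6.02% held the E-box, 3.85% the E'-box, 0.819% the D-box and 14% the receptor core motif. A match is a description of the letters and not a measured binding site.

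All values below are log2 intensities unless a linear intensity is named. The deposited intensities were set to at least 16 before the log2, so a value of 4 means at or below this floor, and 13528 to 13564 of 25697 probes per array lay above it. Across genes, r was 0.9959 to 0.9966 for pairs of DMSO arrays, 0.9929 to 0.9952 for pairs of treated arrays and 0.9888 to 0.9925 for pairs from different groups. Among the deviations of arrays from their group means, the leading axis held 37.4% and set treated 1 against treated 3, whose deviations had r = -0.74 over genes (genes are no independent replicates). Values without these 2 arrays, a setting chosen after seeing the data, are given beside the clock genes that were called and wherever leaving them out ended or gave a call.

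Of the 10 clock genes, 3 rose in treated cells, both REV-ERB genes and Clock, and 0 fell (limma, Benjamini-Hochberg adjustment over all genes, adjusted p under 0.05). The same counts, 3 and 0, were found at an unadjusted p under 0.05 and with a plain test per gene adjusted over all genes. At the unadjusted threshold, 2249 of all 16593 genes were higher and 1920 lower. Over all 16593 genes, 7.97% were called higher and 7.19% lower. These shares, and those over all genes below, include the 5504 genes at the floor on all arrays, which could not be called. With only genes above the floor on at least 4 arrays tested, 3670 of 9165 were called in either direction. Of the 9 clock genes among them 3 were called, which is no larger a share. Nr1d1 and Nr1d2 also changed by over 1.5-fold, as did 2.83% of all genes in that direction. The treated arrays all lay above the DMSO arrays in the same 3 clock genes, and in 10.6% of all genes. The median log2 difference of the 10 clock genes was -0.05, against 0 over all genes tested, where genes at the floor add differences of 0. Among genes above the floor on all 8 arrays it was -0.07 for the clock genes and 0.02 over all genes. Of the 10, 9 lay above the floor on all 8 arrays, and Cry1 lay at it throughout.

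Nr1d2, which encodes REV-ERB beta, read 7.56, 7.55, 7.64 and 7.65 on the 4 DMSO arrays and 8.48, 8.62, 8.67 and 8.43 on the 4 treated arrays. All treated arrays lay above all DMSO arrays, with 0.77 between the highest DMSO and the lowest treated value, while the DMSO arrays spanned 0.10. The gene rose 1.93-fold (95% interval 1.74 to 2.14, log2 difference 0.95 ± 0.06 SE, n = 4 arrays per group here and below, limma adjusted p = 0.000525), from a mean intensity of 194 to 376. It stood at rank 69 by p among the 16593 genes. Without treated 1 and treated 3 the difference was 0.92 ± 0.07 (limma adjusted p = 0.00779). An exact permutation test over the 70 ways to split the 8 arrays gave p = 0.0286, two-sided, which is the smallest it can give.

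Nr1d1, which encodes REV-ERB alpha, read 7.13, 7.10, 7.34 and 7.22 in DMSO and 7.62, 7.63, 7.87 and 8.15 in treated cells. The groups did not overlap, with 0.28 between them, and the treated arrays were spread more widely than the DMSO arrays (SD 0.25 and 0.11). The gene rose 1.54-fold (95% interval 1.23 to 1.91, log2 difference 0.62 ± 0.13 SE, limma adjusted p = 0.0234), from a mean intensity of 147 to 228, and the exact permutation p was 0.0286. This call depended on single arrays: it was lost without DMSO 1 (limma adjusted p = 0.0699), DMSO 2 (0.0667), DMSO 4 (0.0610) or treated 3 (0.0603), at log2 differences of 0.58 to 0.63, and without treated 1 and treated 3 together (0.69 ± 0.17, adjusted p = 0.0778). RefSeq's spans of Nr1d1 and Thra, a thyroid hormone receptor gene on the opposite strand, overlap, and the labels do not state which strand was labelled. The Thra probe averaged 30.1 intensity units in DMSO and 23.0 after treatment, with a log2 difference of -0.05 ± 0.38 (limma adjusted p = 1).

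**Figure D1:**
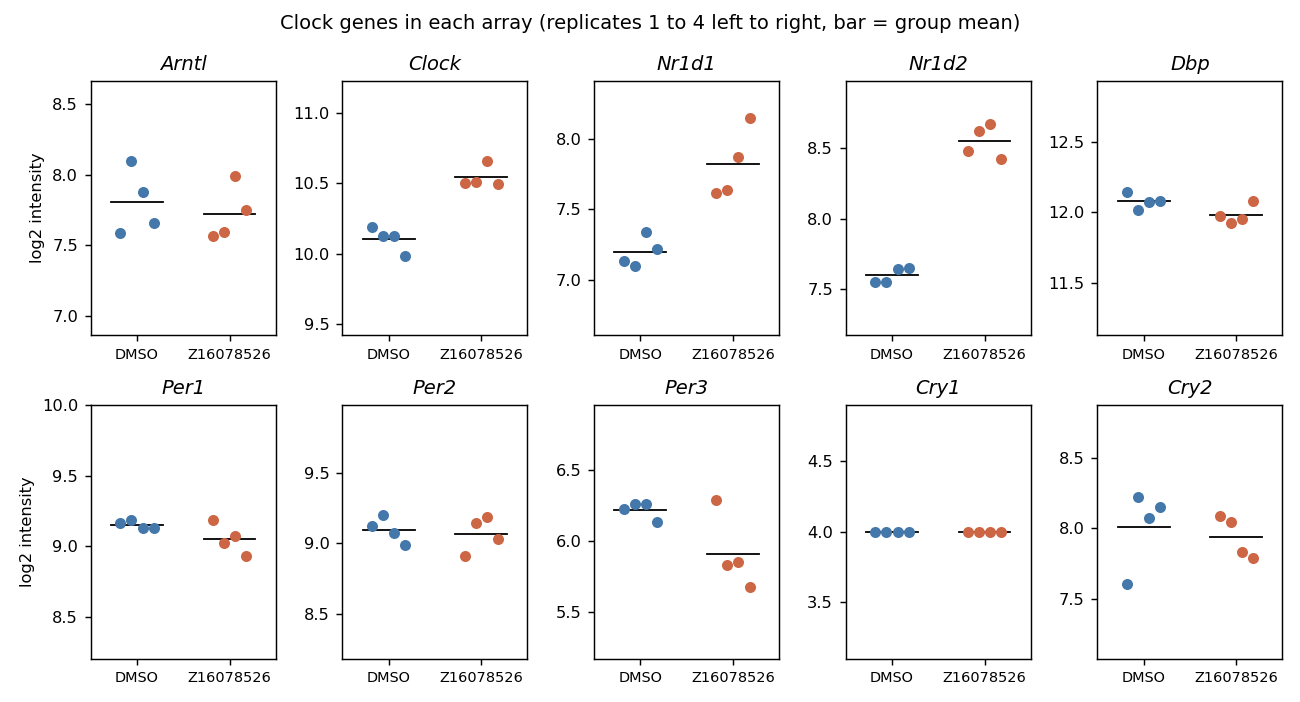
Log2 intensity of the 10 clock genes, one panel per gene, with a point for each array (replicates 1 to 4 from left to right) and a bar at the group mean; every vertical axis spans the same number of log2 units around its own gene, so heights may be compared as differences and not as levels between genes. Treated points lie above all DMSO points in Clock, Nr1d1 and Nr1d2, the groups overlap in Arntl, Dbp, Per1, Per2, Per3 and Cry2, and Cry1 lies at the floor of 4 throughout.

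The activators differed from each other. Clock, whose protein binds DNA as the partner of BMAL1, read 10.19, 10.13, 10.12 and 9.98 in DMSO and 10.50, 10.51, 10.66 and 10.49 in treated cells. Again all treated arrays lay above all DMSO arrays, by at least 0.30. Clock rose 1.35-fold (95% interval 1.23 to 1.49, log2 difference 0.44 ± 0.06 SE, limma adjusted p = 0.00396, exact permutation p = 0.0286). With any single array left out its adjusted p lay between 0.00735 and 0.0156, and without treated 1 and treated 3 the difference was 0.40 ± 0.06 (limma adjusted p = 0.0277).

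Arntl, the gene for BMAL1 and the best known target of REV-ERB repression, read 7.58, 8.10, 7.88 and 7.66 in DMSO and 7.56, 7.59, 7.99 and 7.75 in treated cells. The groups overlapped almost wholly, and the DMSO arrays alone spanned 0.51. The log2 difference was -0.08 ± 0.15 SE with a 95% interval of -0.43 to 0.27 (limma adjusted p = 1, exact permutation p = 0.629). Any difference within that interval is compatible with these arrays at that confidence, so the test does not show that Arntl was unaffected.

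None of the 5 repressor genes was called in either direction. Per1, the family member that cAMP and glucocorticoid signals induce fastest, read 9.17, 9.19, 9.13 and 9.13 in DMSO and 9.19, 9.02, 9.07 and 8.93 in treated cells. Treated 1 lay just above the DMSO arrays and the other 3 treated arrays below all of them. The log2 difference was -0.10 ± 0.05 (95% interval -0.23 to 0.03, limma adjusted p = 0.356, exact permutation p = 0.171). Without treated 1 and treated 3 it was -0.18 ± 0.03 and Per1 was called lower (limma adjusted p = 0.0463). With all 8 arrays the groups overlapped through treated 1 alone.

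Per2, which links the loop to nuclear receptors by binding some of them, read 9.12, 9.20, 9.07 and 8.99 in DMSO and 8.91, 9.14, 9.19 and 9.03 in treated cells. Its groups overlapped throughout, with a log2 difference of -0.03 ± 0.07 (95% interval -0.21 to 0.15, limma adjusted p = 1, exact permutation p = 0.714). Per3, which is not needed for the core rhythm in mice, read 6.22, 6.26, 6.26 and 6.14 in DMSO and 6.29, 5.83, 5.85 and 5.67 in treated cells. Here too 3 treated arrays lay below all DMSO arrays while treated 1 lay above all of them. The log2 difference was -0.31 ± 0.16 (95% interval -0.68 to 0.06, limma adjusted p = 0.305, exact permutation p = 0.143), and without treated 1 and treated 3 it was -0.47 ± 0.13 (limma adjusted p = 0.111).

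The cryptochromes are the strongest repressors of BMAL1 and CLOCK. Cry2 read 7.60, 8.23, 8.07 and 8.15 in DMSO and 8.08, 8.05, 7.83 and 7.79 in treated cells, so that DMSO 1 lay below every other array. The log2 difference was -0.07 ± 0.15 (95% interval -0.44 to 0.29, limma adjusted p = 1, exact permutation p = 0.714). The single Cry1 probe lay at the floor on all 8 arrays, with deposited intensities from -20.9 to 6.86, so no difference in Cry1 could be measured.

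Dbp, an output gene that BMAL1 and CLOCK activate directly through E-boxes, read 12.14, 12.01, 12.07 and 12.08 in DMSO and 11.98, 11.92, 11.95 and 12.08 in treated cells. Treated 1, 2 and 3 lay below all DMSO arrays and treated 4 within their range. The log2 difference was -0.09 ± 0.04, with a 95% interval of -0.19 to 0.01 (limma adjusted p = 0.239, exact permutation p = 0.114). An increase of Dbp beyond the upper end of that interval lies outside what these arrays allow at that confidence.

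The roles were set side by side as the mean deviation of their genes on each array. The mean deviation of the 2 REV-ERB genes from their DMSO means was 0.65 to 0.89 on the treated arrays (mean 0.78) and -0.07 to 0.09 on the DMSO arrays. That of the 2 activators was 0.08 to 0.37 on the treated arrays (mean 0.18) and -0.13 to 0.16 in DMSO, and it joins a gene that rose with one that was not called. For the 4 repressors above the floor, Per1, Per2, Per3 and Cry2, the treated arrays lay between -0.27 and -0.00 (mean -0.13) and the DMSO arrays between -0.09 and 0.10. For Dbp the treated range was -0.15 to 0.01 and the DMSO range -0.06 to 0.06. These ranges overlap between the groups for the activators, the repressors and Dbp, and not for the REV-ERB genes. They are descriptions of chosen genes, and no test of a difference between the roles was run.

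**Figure D2:**
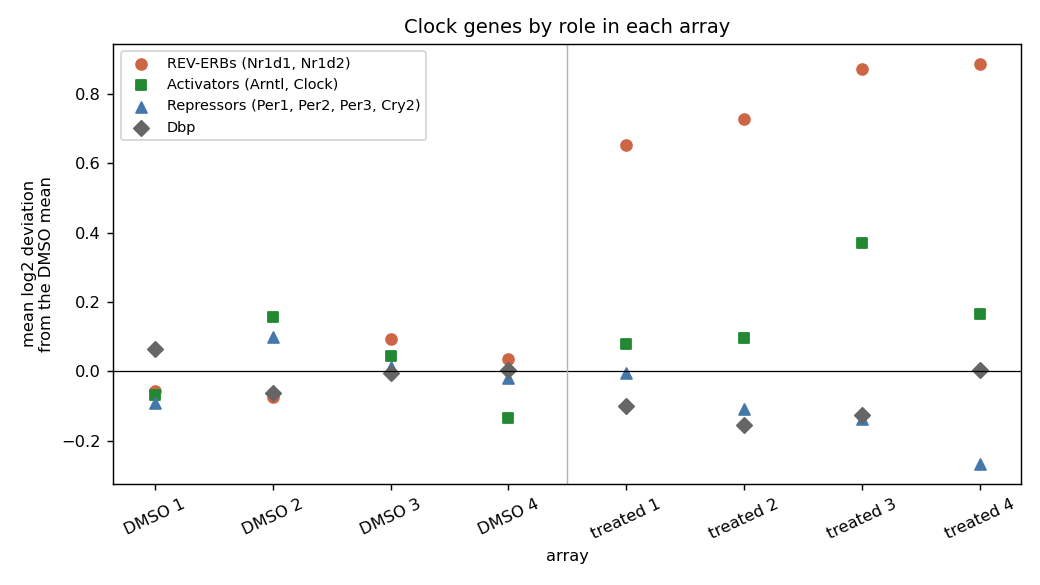
Mean log2 deviation from the DMSO mean on each of the 8 arrays for the REV-ERB genes, the activators, the 4 measured repressors and Dbp; each point is a mean over the genes of that role on 1 array, and the DMSO points scatter around 0 by construction. The REV-ERB points lie between 0.65 and 0.89 on the treated arrays, while those of the repressors lie between -0.27 and 0.

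Several clock genes were read by more than 1 probe, and the probes of a gene did not always move together. The 10 genes had 17 probes, of which 13 lay above the floor on all 8 arrays, 3 at it on all 8 and 1 above it on some. Tested singly over all 25697 probes, 3 of the 17 were called higher and 0 lower, against 6.76% of all probes called higher. That share includes probes at the floor on all arrays, which could not be called. The 3 were the brightest probes of Nr1d2 (limma adjusted p = 0.000628), Clock (0.00488) and Nr1d1 (0.0264), the same ones as in the comparison by gene.

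The second Nr1d1 probe was dimmer, with intensities of 57.4 to 107, and had a log2 difference of 0.27 ± 0.20 (limma adjusted p = 0.630), in the same direction and not called. The second Clock probe, at 44.3 to 67.9, had one of -0.06 ± 0.19 (limma adjusted p = 1), and the third lay at the floor. Clock therefore rose on its brightest probe alone. The second Nr1d2 probe lay at the floor on all arrays, so that the increase in Nr1d2 rests on 1 probe. The second Per1 probe gave 0.08 ± 0.11 against -0.10 for the first, and the second Per2 probe 0.04 ± 0.07 against -0.03, all not called. The third Per2 probe was above the floor on 1 DMSO array only, with an intensity of 25.6. Averaging a gene's probes left Nr1d2 called (log2 difference 0.48 ± 0.06, limma adjusted p = 0.00457), and ended the calls of Nr1d1 (0.44 ± 0.12, 0.0617) and Clock (0.12 ± 0.06, 0.315).

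**Figure D3:**
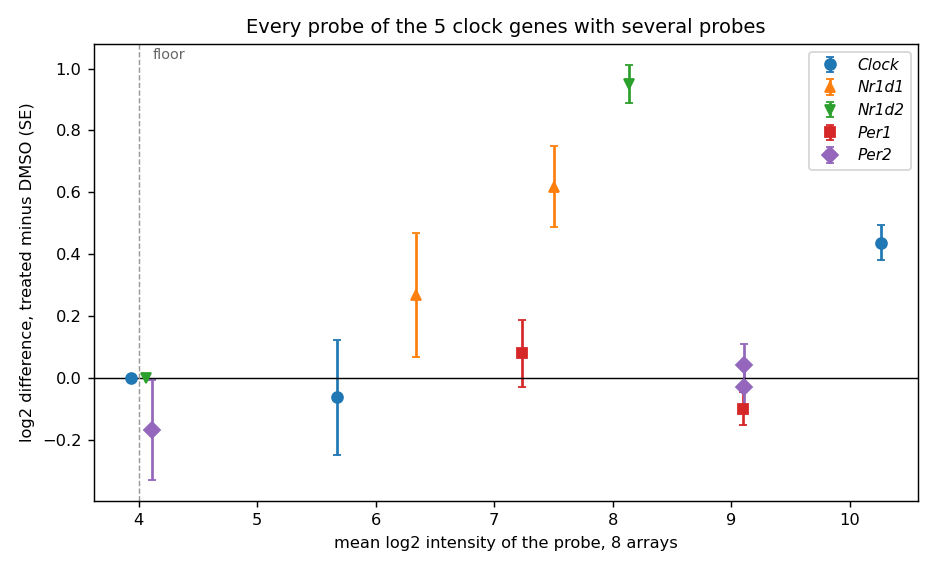
Log2 difference of each probe with its SE against the probe's mean log2 intensity, for the 5 clock genes with several probes; the dashed line marks the floor, and points at it are set slightly apart so that both can be seen. The 3 called probes, of Nr1d1, Nr1d2 and Clock, are the brightest of their genes, and the dimmer probes of Nr1d1 and Clock lie at 0.27 and -0.06.

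Other genes of the loop were described from lists chosen with earlier results of these data known. Of 11 paralogs and genes of the accessory loops, 10 were measured, 2 rose and 1 fell, with a median log2 difference of -0.03. Rora, whose product activates Arntl at the sites that REV-ERB represses, read 8.99, 9.06, 9.15 and 9.11 in DMSO and 9.88, 9.51, 9.29 and 9.48 in treated cells. Treated 1 was highest and treated 3 lowest of the treated arrays, and all lay above DMSO. Rora rose 1.38-fold (log2 difference 0.47 ± 0.12, limma adjusted p = 0.0487). Its call was lost without any single array other than treated 1 or treated 3 (adjusted p 0.0914 to 0.127), averaged over its probes (0.131) and in a plain test per gene (0.0685), and in 12 of 24 other settings in all.

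Ciart, whose product (also called CHRONO) represses BMAL1 and CLOCK, read 9.01, 8.89, 9.05 and 8.89 in DMSO and 9.20, 9.37, 9.55 and 9.37 in treated cells. The groups did not overlap and Ciart rose 1.33-fold (log2 difference 0.41 ± 0.08, limma adjusted p = 0.0170). Without DMSO 2, DMSO 4 or treated 2 its adjusted p was 0.0502 to 0.0516. Nfil3, the D-box repressor and a known target of REV-ERB repression, read 11.55, 11.51, 11.43 and 11.25 in DMSO and 11.07, 11.05, 11.14 and 10.92 in treated cells. All treated arrays lay below DMSO, and Nfil3 fell 1.31-fold (log2 difference -0.39 ± 0.08, limma adjusted p = 0.0191). Without DMSO 1, 2 or 3 or treated 2 its adjusted p was 0.0523 to 0.0554, and without treated 1 and treated 3 together 0.0656 (log2 difference -0.45 ± 0.10).

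Bhlhe40, which encodes DEC1, an E-box repressor, read 12.68, 12.84, 12.47 and 12.59 in DMSO and 12.31, 12.29, 12.43 and 11.99 in treated cells. The groups did not overlap, but the log2 difference of -0.39 ± 0.12 missed the threshold (limma adjusted p = 0.0738), and it passed with genes at the floor left out (0.0224) and in 3 other settings. The activator gene Tef had a difference of -0.12 ± 0.12 (limma adjusted p = 0.716) and Rorb, a relative of Rora, of -0.06 ± 0.24 (limma adjusted p = 1). Npas2, which can stand in for Clock, was above the floor on 3 DMSO arrays and 1 treated array. Arntl2, Bhlhe41 and Hlf were at the floor throughout.

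**Figure D4:**
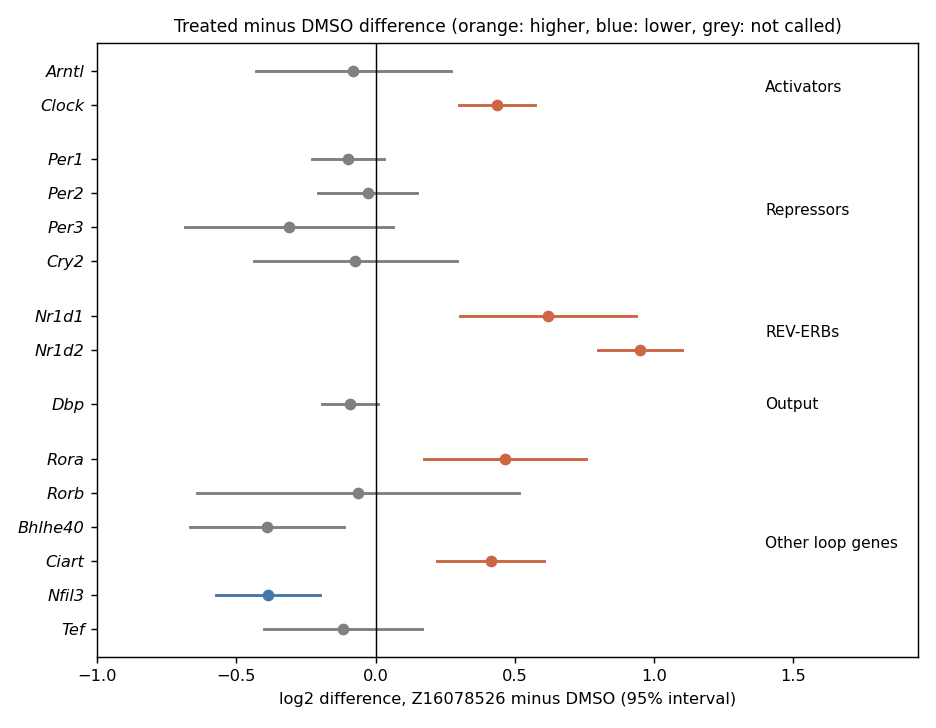
Log2 difference, treated minus DMSO, with its 95% interval for the 9 clock genes above the floor and for the other loop genes above the floor on all 8 arrays, grouped by role. Orange marks Clock, Nr1d1, Nr1d2, Rora and Ciart, called higher, blue marks Nfil3, called lower, and the intervals of the grey genes other than Bhlhe40 include 0.

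Enzymes and cofactors that modify clock proteins went both ways. Of 15 listed, 12 were measured, 2 rose and 3 fell, and their median difference was 0.02. Sirt1, a deacetylase that acts on BMAL1 and PER2, rose 1.45-fold (log2 difference 0.53 ± 0.11, limma adjusted p = 0.0213). Nono, an RNA-binding partner of PER proteins, was dim, and rose 1.97-fold (0.98 ± 0.25, adjusted p = 0.0426) between mean intensities of 64.9 and 128. Of the genes that fell, Csnk1e encodes casein kinase 1 epsilon, which marks PER proteins for degradation, and read 10.95, 10.83, 10.76 and 10.85 in DMSO and 10.44, 10.33, 10.53 and 10.44 in treated cells. It was 1.33-fold lower (limma adjusted p = 0.00428), while its relative Csnk1d had a difference of 0.05 (adjusted p = 1).

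Usp2, a deubiquitinase of clock proteins and itself rhythmic in many tissues, read 9.05, 8.98, 8.84 and 8.88 in DMSO and 8.45, 8.24, 8.25 and 8.30 in treated cells. The groups were clearly apart, and Usp2 was 1.54-fold lower (limma adjusted p = 0.00194). Timeless, whose product works at replication forks and binds clock proteins, was 1.49-fold lower (adjusted p = 0.00498). Averaged over their probes, Usp2 (log2 difference -0.16, limma adjusted p = 0.195) and Timeless (-0.50, 0.158) were not called. Sirt1 lost its call without DMSO 1, DMSO 3 or treated 2 (adjusted p 0.0587 to 0.0604), and Nono without any single array other than DMSO 2 or treated 1 (0.0787 to 0.110). Without treated 1 and treated 3 together neither was called, Sirt1 at 0.49 ± 0.14 (limma adjusted p = 0.108) and Nono at 0.93 ± 0.27 (0.123).

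Of 9 genes that cycle in many tissues, 8 were measured, 1 rose and 1 fell, with a median difference of -0.00. Nampt, which encodes the rate-limiting enzyme of NAD+ salvage and is an E-box target, read 10.11, 10.47, 9.98 and 9.96 in DMSO and 11.21, 11.24, 11.42 and 10.88 in treated cells. It rose 2.08-fold (log2 difference 1.06 ± 0.16, limma adjusted p = 0.00646), with no overlap between the groups. Without treated 1 and treated 3 the difference was 0.93 ± 0.20 and missed the threshold (adjusted p = 0.0550). Tns2, a gene of focal adhesions, was dim and 2.37-fold lower (limma adjusted p = 0.0128), with mean intensities of 72.6 and 31.6. Averaged over its probes it was not called (adjusted p = 0.0991), and with a floor of 50 its log2 difference was -0.53 ± 0.06 in place of -1.25 ± 0.22.

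Taking these 3 lists as one, 30 of 35 genes were measured, 5 rose and 5 fell (16.7% each). Over all genes, those at the floor included, 7.97% were called higher and 7.19% lower. With only genes above the floor on at least 4 arrays tested, 6 of 23 were higher and 8 lower. In that setting 3670 of all 9165 genes were called in either direction. The median difference of the 30 genes was 0, as over all genes. For the 22 above the floor on all 8 arrays it was -0.03, against 0.02 for all such genes. The 5 that rose were Rora, Ciart, Sirt1, Nono and Nampt, and the 5 that fell were Nfil3, Csnk1e, Usp2, Timeless and Tns2. Left out one at a time, the arrays gave 1 to 6 genes higher and 4 to 7 lower, with the fewest higher (1) without treated 2, 2 without DMSO 1, DMSO 3 or DMSO 4, and 3 without DMSO 2 or treated 4.

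A list of genes that REV-ERB proteins are known to repress in some tissue was set beside the increase in Nr1d1 and Nr1d2. Of 14 listed, 12 were measured, 7 of them above the floor on all 8 arrays. Of the 12, 1 rose (8.33%) and 3 fell (25%), against 7.97% and 7.19% of all genes. Their median difference was -0.01, and that of the 7 above the floor was -0.02. The gene that rose was Ucp1, the uncoupling protein of brown fat and a REV-ERB alpha target there, which read 4.68, 5.15, 5.26 and 4.41 in DMSO and 6.55, 6.20, 6.29 and 5.95 in treated cells. These are dim values, and Ucp1 rose 2.59-fold (log2 difference 1.37 ± 0.23, limma adjusted p = 0.0103). Without treated 1 and treated 3 it was not called (1.20 ± 0.29, adjusted p = 0.0768), and with a floor of 50 the difference was 0.60 ± 0.12 (adjusted p = 0.0242).

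The members that fell were Nfil3, described above, Cdkn1a, the gene of the cell cycle inhibitor p21, and Ccl2, which encodes a chemokine that attracts monocytes. Cdkn1a was 1.28-fold lower (log2 difference -0.35 ± 0.07, limma adjusted p = 0.0196). Ccl2 read 8.08, 8.64, 8.88 and 8.75 in DMSO and 8.09, 7.69, 7.56 and 7.74 in treated cells, so that DMSO 1 and treated 1 met, and was 1.76-fold lower (-0.82 ± 0.20, adjusted p = 0.0398). Cdkn1a lost its call without DMSO 1, 2 or 3 or treated 2 (adjusted p 0.0545 to 0.0561), and Ccl2 without any single array other than DMSO 1 or treated 1 (0.0929 to 0.105). Without treated 1 and treated 3 together Ccl2 was not called either (-0.87 ± 0.25, limma adjusted p = 0.112). The clock genes were not in this list, so Arntl, the target of the loop itself, is left out of its counts and medians. Arntl was not called, as given above. Ppargc1a (0.24, limma adjusted p = 0.229), Insig2 (0.11, 0.295) and Lpl (-0.02, 1) were not called either, and Il6 lay at the floor on all 8 arrays. Npas2, Elovl3, Pck1 and G6pc lay above it on some arrays only and were not called.

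Per1 can also be induced from outside the loop, through CREB after cAMP and through the glucocorticoid receptor. Lists of genes that respond to these signals each held genes called in both directions. Of 11 CREB and immediate early genes, all measured, 7 lay above the floor on all 8 arrays. Of the 11, 2 rose (18.2%) and 1 fell (9.09%), against 7.97% and 7.19% of all genes, with a median difference of 0.08. Fos, an immediate early transcription factor gene, read 7.02, 7.25, 7.29 and 6.75 in DMSO and 8.09, 8.22, 8.22 and 7.87 in treated cells. Fos rose 2.03-fold (log2 difference 1.02 ± 0.14, limma adjusted p = 0.00552), though without treated 1 and treated 3 it missed the threshold (0.97 ± 0.21, adjusted p = 0.0555). Crem, a relative of CREB, rose 1.96-fold at low signal (adjusted p = 0.0469) and lost its call without any single array other than treated 1 (0.0555 to 0.126), without treated 1 and treated 3 together (0.0611) and with a floor of 50, where its difference was 0.52 ± 0.20 (0.186). Rgs2, a regulator of G protein signals, read 7.88, 8.01, 8.16 and 8.02 in DMSO and 7.30, 7.56, 7.56 and 7.61 in treated cells, and was 1.42-fold lower (limma adjusted p = 0.0109).

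Of 10 glucocorticoid target genes, 8 were measured, 1 rose (12.5%) and 2 fell (25%), with a median difference of -0.13. Over all genes 7.97% were called higher and 7.19% lower. Errfi1, an inhibitor of the EGF receptor, read 11.13, 10.99, 11.08 and 10.85 in DMSO and 10.22, 10.29, 10.41 and 10.21 in treated cells, and was 1.66-fold lower (limma adjusted p = 0.00169). Fkbp5, a chaperone partner of the glucocorticoid receptor and one of its most used target genes, read 8.77, 8.74, 8.75 and 8.84 in DMSO and 8.19, 8.16, 8.42 and 7.96 in treated cells. It was 1.51-fold lower (adjusted p = 0.00782), and neither of these genes overlapped between the groups. Mt2, a metallothionein gene, rose 1.57-fold (limma adjusted p = 0.0187) and lost its call without DMSO 1, 2 or 3 or treated 2 or 4 (0.0523 to 0.0583). Tsc22d3, another target, had a difference of -0.22 (limma adjusted p = 0.0806). Sgk1 (-0.43, limma adjusted p = 0.234), Klf9 (-0.04), Mt1 (-0.02) and Klf15 (0.14) were not called either. Mt1 read 39926 to 41175, at or near the array maximum of 41175, so little rise could be seen. At an unadjusted limma p under 0.05, 3 of the 8 were lower and 1 higher. Of all 16593 genes, 1920 were lower and 2249 higher at that threshold.

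**Figure D5:**
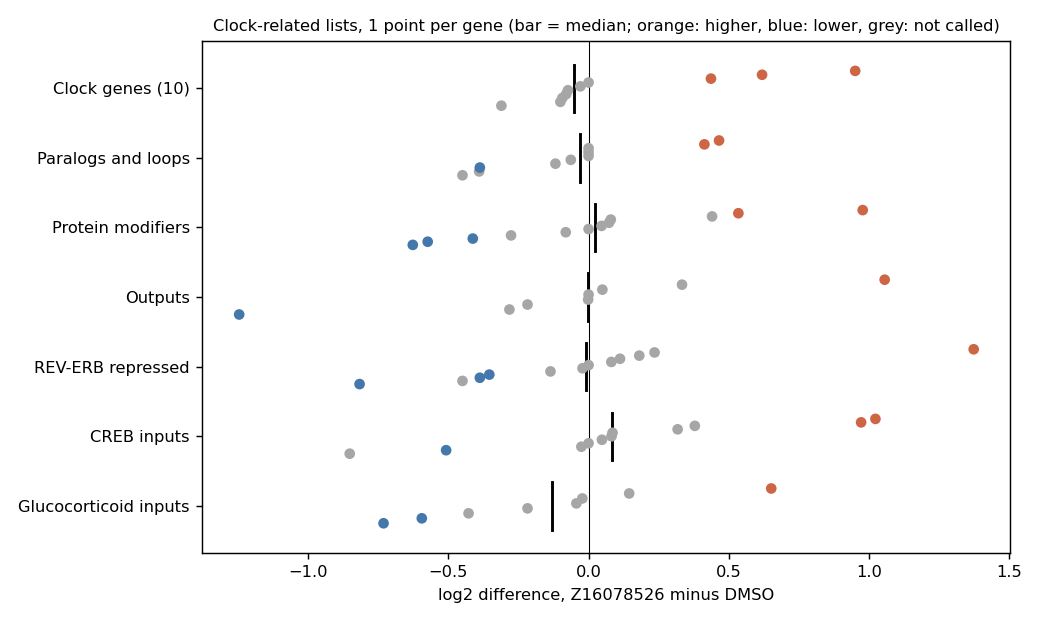
Log2 difference, treated minus DMSO, of every measured gene in the 10 clock genes and in 6 lists around the clock, 1 point per gene, with a bar at each list's median; orange points were called higher and blue points lower. The medians lie between -0.13 and 0.08, and points called in both directions appear in each of the 6 lists.

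The 5 genes whose values followed those of Nr1d2 most closely over the 8 arrays were Plin5, a lipid droplet protein gene, at r = 0.991, and Stard5, a sterol transport gene, Riox2, Hectd2 and Prpsap2, each at r = 0.990. They were taken from 7853 other genes above the floor on all arrays, and all 8 points come from 2 groups, so that any gene with a clean difference between the groups comes out alike. Their log2 differences were 0.91, 0.59, 0.70, 0.33 and 1.16 in that order. None of them is among the clock genes or the lists around the clock.

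The labelled cell type was read from its markers. Of 8 adipocyte markers 7 lay above the floor on all arrays, with 2 higher (Fabp4 and Cidec) and 1 lower (Pparg). Of 8 brown adipocyte markers 5 did so, 3 were higher (Ucp1, Cidea and Cox8b) and 0 lower, Prdm16 and Dio2 never left the floor, and Elovl3 did so in treated 2 and treated 3. The summed intensity of these 8 was 3092 to 3540 in DMSO and 4841 to 5973 in treated cells. Mean intensities in DMSO and treated cells were 1062 and 2370 for Cidea and 1168 and 1729 for Cox8b. They were 859 and 1018 for Ebf2, 254 and 299 for Ppargc1a and 30.2 and 76.7 for Ucp1, so Cidea and Cox8b weighed most in this sum. Of 9 preadipocyte and fibroblast markers measured, 0 were higher, 3 lower (Dcn, Col3a1 and Vim) and 6 not called, Thy1 of these at the floor. Their sum, of which Vim held the most, was 14667 to 16705 in DMSO and 9289 to 12635 in treated cells. Neither sum overlapped between the groups, and the part of these markers in the changes of Nr1d1, Nr1d2 and Clock was not tested.

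The measured markers of other cell types lay at the floor on all arrays or were dim. Cdh5, Kdr, Tie1 and Emcn of 6 endothelial markers, Lyz2 and Ptprc of 4 macrophage markers, and Myod1, Ckm and Tnnt3 of 6 skeletal muscle markers lay at the floor on all 8 arrays. The muscle gene Mylpf lay above it on all 8, at intensities of 19.8 to 42.7. Acta1 did so on 4 DMSO arrays and 1 treated array, and Myog on 3 and 2. Pecam1 did so on 1 DMSO array and 3 treated arrays, Mrc1 on 1 and 2, and Adgre1 on 1 treated array only. Summed intensities were 27.0 to 62.3 in DMSO and 34.3 to 47.1 in treated cells for endothelium, 3.69 to 21.6 and 10.6 to 39.0 for macrophages, and 80.9 to 94.9 and 47.1 to 107 for muscle, so that the groups overlapped in each. Of these markers 1 was called: Tek, an endothelial receptor gene, read 4.29, 4.19, 4.25 and 4.13 in DMSO and never left the floor in treated cells (limma adjusted p = 0.00755).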

How the data were processed

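The authors deposited 1 table of linear intensities for 25697 probes on 8 arrays. Per the submitters' processing notes it was made with GenomeStudio, Illumina's software (version and options not stated in these notes). Per the labels' protocols, RNA was extracted with Trizol and labelled with biotin; the labelling note names Agilent, while the probe identifiers are Illumina's. From 28.28% to 28.44% of an array's intensities lay below 0, a mark of background subtraction. All arrays shared an upper quartile of 308 and a maximum of 41175, while their medians ran from 20.3 to 20.6, so their scales had been matched, though not exactly at low values. The number of arrays limits the precision.

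From the deposited intensities, values were set to at least 16 and log2 taken. Of the probes, 23978 had 1 symbol in the platform annotation, and the other 1719 were left out of the comparison by gene. Per gene the probe of highest mean intensity was used. The 5504 genes at the floor on all arrays were kept. Groups were compared with limma 3.58.1 in R 4.3.3 (lmFit, eBayes with an intensity trend, two-sided, group as the only term), adjusted over 16593 genes and called at an adjusted p under 0.05, and with exact permutation tests over arrays. The fit was tested on simulated data. No slide or scan batch is given in the sources used here.

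The members and the lists were chosen with earlier results of these data known. The rule for naming genes took all 10 clock genes, every called gene of the lists, loop genes above the floor on all arrays, and the 5 genes most like the clock gene of smallest p; other names spell out small counts and were chosen after their values were seen. Same-numbered arrays of the groups did not deviate together (r of -0.22 to 0.21 across genes), so the numbers were not taken as pairs.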

Additional observations from a re-analysis of the deposited data

Results flagged for a closer look

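In 62 groups of 4 arrays of the named genes, an array was called far from the others by Dixon's test in 2, where chance gives about 1 in 20. Among the treated arrays, Clock read 10.66 on treated 3 and at most 10.51 on the others, a gap of 0.894 of the group's range; without treated 3 Clock remained called. Rgs2 read 7.305 on treated 1, where the nearest other treated array read 7.562, a gap of 0.841 of the range.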

How the results depend on the processing

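Over 24 other settings the number of clock genes called higher was 3 or 2, except 1 (Nr1d2) when the probes of a gene were averaged, and with one array left out it was 2 to 3. Nr1d2 was called in 24 of 24 (limma adjusted p 5.11e-07 to 0.0193), Clock in 23 and Nr1d1 in 17 (0.00124 to 0.0778). The number called lower was 0, except 1, Per1, without treated 1 and treated 3. No clock gene changed sign while called. Of the 30 other clock-related genes, 5 higher became 2 without treated 1 and treated 3 and 1 to 6 with one array left out; 5 lower became 8 both without genes at the floor on all arrays and with genes above it on at least 4 arrays, which test fewer genes. The causes of the other changes were not tested.

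With the replicate number as a block, 1123 genes were called in place of 2516, 2 clock genes were higher (Nr1d1 lost its call, adjusted p = 0.0598), and 1 of the other genes was higher and 3 lower. Of the 8 arrays, 3 correlated best with their own number, and r of same-numbered arrays ran from -0.22 to 0.21. These values come from the data and not the design, and give no clear sign of pairs. For genes at the floor, Cry1 among them, no difference was measurable.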
